A study of Mus musculus with 30 samples.

Results

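The genes described here are the Wnt ligands, their Frizzled receptors, and the secreted proteins that hold back or strengthen Wnt signals in the mouse cortex. Every gene named Wnt, Fzd, Sfrp, Dkk or Rspo with a family number was taken if it was measured on both array types used, which gave 41 of 16553 genes shared by both tables. They comprised 19 Wnt ligands, 10 Frizzled receptors, 4 secreted Frizzled-related proteins (Sfrp), 4 Dickkopf proteins (Dkk) and 4 R-spondins (Rspo). The rule used names only and no measured value, but it was set with earlier results of these data known.

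The study measured RNA from mice with and without Tbr1, a T-box transcription factor of early-born cortical neurons, on 30 microarrays. The KO samples were homozygous Tbr1 nulls (Tbr1 -/-) and the WT samples were wild type, all on the CD1 background. Embryonic neocortex came from 3 KO and 3 WT samples at E14.5. Newborn brain tissue came from the frontal, the parietal and the occipital region at P0.5, with 4 KO and 4 WT samples of each, on 24 arrays in 6 groups. The null is carried by every cell and not by a chosen cell type, since heterozygous parents were crossed, and the labels give neither sex nor litter. The labels do not say that replicates were separate animals, so the p-values measure only the spread between these samples. All values are log2 signals of one probe set per gene, so a difference of 1 is a 2-fold change, and levels are not compared between genes or between the stages. A gene was called when its limma adjusted p was under 0.05 over all genes of that comparison.

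Wnt proteins are secreted lipid-modified ligands that bind Frizzled receptors together with the co-receptors Lrp5 or Lrp6. In the canonical branch this stabilises beta-catenin, which acts with TCF and LEF factors on target genes, and in the planar cell polarity branch Frizzled receptors orient cells and growing axons. Sfrp proteins bind Wnt ligands outside the cell, Dickkopf proteins act on the co-receptors, and R-spondins keep Frizzled receptors at the surface through the Lgr receptors. In the developing cortex, Wnt ligands from the cortical hem pattern the hippocampus and dorsal cortex, and Wnt7a and Wnt7b also guide blood vessel growth into the neural tube.

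Tbr1 checks the genotype labels only in part, since it is not given here whether its probe sets lie in the deleted stretch. Tbr1 signal lay between 9.07 and 9.91 on the 12 KO arrays at P0.5 and between 9.73 and 10.60 on the 12 WT arrays. The KO and WT ranges of Tbr1 did not overlap in any region. In embryos its signal was 8.69, 7.23 and 7.57 in KO and 9.36, 8.89 and 9.11 in WT. Mean signal of 6 cortical neuron markers at P0.5 was 9.56 to 9.72 on KO arrays and 9.56 to 9.81 on WT arrays. The mean of the measured Y-linked genes was low on all 4 frontal KO arrays (5.09 to 5.99) and high on all 4 frontal WT arrays (8.99 to 9.15), with Xist at 11.96 to 12.20 and 5.65 to 6.39, so in frontal tissue genotype and this level cannot be told apart. It was also low on parietal KO 2 and 4, parietal WT 2 and occipital KO 3. Xist was raised together with the Y-linked genes on 5 arrays, namely parietal KO 1 and 3, occipital KO 2 and 4 and parietal WT 3 (7.75 to 8.77). The mean of the dimmest 40% of genes, called the dim-gene level below, was 6.01 in frontal KO and 6.14 in frontal WT tissue and reached 6.27 on frontal WT array 4.

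Of the 41 genes, 13 were called in at least 1 of the comparisons below and 28 in none, where 17.2% of the 16553 genes were called in at least 1. In KO against WT tissue at P0.5 the 8 called genes, against 11.9% of all genes, were Wnt7b, Wnt9b, Wnt2, Fzd1, Fzd3, Sfrp1, Sfrp2 and Dkk3. Wnt7b and Fzd3 fell where they were called, and Sfrp1, Sfrp2, Fzd1 and Dkk3 rose where they were called. Over all 3 regions 5 genes had a positive KO minus WT difference in each region, 9 a negative one in each and 27 a mixture.

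RefSeq promoter windows (GRCm38.p6), the 250 bases before a transcript start, were available for 27 of the 41 genes, in 30 windows. Fzd1 is shown because it was called in more comparisons than any other receptor of the family, and Wnt11 because it was the called ligand whose window held a TCF and LEF motif. The Fzd1 window is chr5:4758217-4758466, minus strand, directly before the annotated gene. The first Wnt11 window is shown as far as the start of the annotated gene, as chr7:98834862-98835083, plus strand. Capitals mark the TCF and LEF motif CTTTGAT, read here on the opposite strand.
Fzd1: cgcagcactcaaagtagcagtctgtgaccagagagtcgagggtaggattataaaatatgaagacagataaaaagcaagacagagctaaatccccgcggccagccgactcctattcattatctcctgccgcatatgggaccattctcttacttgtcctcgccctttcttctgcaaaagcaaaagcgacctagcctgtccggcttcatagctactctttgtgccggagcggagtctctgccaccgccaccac
Wnt11: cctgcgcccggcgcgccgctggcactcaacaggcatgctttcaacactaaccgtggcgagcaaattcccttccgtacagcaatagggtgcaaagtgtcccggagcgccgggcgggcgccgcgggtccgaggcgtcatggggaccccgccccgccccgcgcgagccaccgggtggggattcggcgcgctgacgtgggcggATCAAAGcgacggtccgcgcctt

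Both strands of every window were searched for a T-box motif and for 2 forms of the TCF and LEF motif, which differ in their last letter. The called genes Wnt7b, Fzd3, Sfrp1, Dkk3, Rspo2, Rspo3 and Wnt10a had no window, so their promoters were not searched. The T-box motif AGGTGTGA was in 0 of the 30 windows, against 1.12% of 32851 windows of all genes. CTTTGAT was in 2 windows (6.67%, in Wnt11 and Wnt5b), against 3.21% of all windows, and CTTTGAA in 1 (3.33%, in Dkk1), against 4.46%. These are descriptions of letters in a window and not of binding.

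Wnt7b fell in newborn frontal and parietal tissue without Tbr1, and its frontal difference was the largest of the 41 genes. This ligand (probe set 10431210) had signals of 7.40, 7.47, 7.66 and 7.36 on the 4 frontal KO arrays, against 8.64, 8.46, 8.81 and 8.35 on the 4 frontal WT arrays. All KO arrays lay below all WT arrays. In parietal tissue it had 7.87, 7.92, 7.76 and 7.85 in KO, against 8.63, 8.52, 8.86 and 8.65 in WT, again without overlap. In occipital tissue it had 8.57, 8.34, 8.75 and 8.44 in KO, against 8.30, 8.96, 8.97 and 8.84 in WT, and the groups overlapped.

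The log2 difference of Wnt7b was -1.09 in frontal tissue, a 2.13-fold lower signal in KO (SE 0.123, limma adjusted p = 1.51e-06), and -0.82 in parietal tissue, 1.76-fold lower (adjusted p = 2.06e-04). In occipital tissue it was -0.24 (95% interval -0.50 to 0.01, limma adjusted p = 0.489). The frontal minus occipital difference of Wnt7b was -1.05 in KO (adjusted p = 7.62e-06) and -0.21 in WT, where it was not called. The test of the change in that difference gave -0.85 (SE 0.174, limma adjusted p = 0.0279). The call of the change was lost without frontal KO 1, frontal KO 4, occipital KO 3 or frontal WT 3, and over the 16 fits that left out an array the change ranged from -0.92 to -0.69. Fewer cells of a type and less RNA per cell cannot be told apart in such tissue samples.

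Markers of layer 6 and subplate neurons and of Cajal-Retzius cells were also lower in KO tissue. Of 10 such genes, 7 fell in frontal, 6 in parietal and 3 in occipital KO tissue, against 2.81%, 0.747% and 0.577% of all genes, and their mean signal was 8.21 to 8.41 in frontal KO, against 8.86 to 9.18 in frontal WT tissue. Of 8 Cajal-Retzius cell genes 2 fell in frontal, 1 in parietal, 2 in occipital tissue and 4 over the regions (2.75% of all genes fell there). Their mean was 7.04 to 7.26 in frontal KO and 7.30 to 7.49 in frontal WT tissue, 7.07 to 7.33 in parietal KO and 7.39 to 7.55 in parietal WT tissue, and 7.06 to 7.37 in occipital KO and 7.43 to 7.84 in occipital WT tissue, with no overlap. Of 7 blood vessel genes 1 fell in frontal KO tissue, Kdr, and their mean was 8.01 to 8.63 in frontal KO and 8.26 to 9.34 in frontal WT tissue. The part of these lists in the Wnt7b result was not tested. Wnt7b was 7.92 and 7.85 on parietal KO arrays 2 and 4, with a low level of Y-linked genes, and 7.87 and 7.76 on parietal KO arrays 1 and 3, with a high one. In frontal tissue this level and genotype cannot be told apart, and the frontal difference of -1.14 with the level in the fit takes its slope from the other regions.

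**Figure D1:**
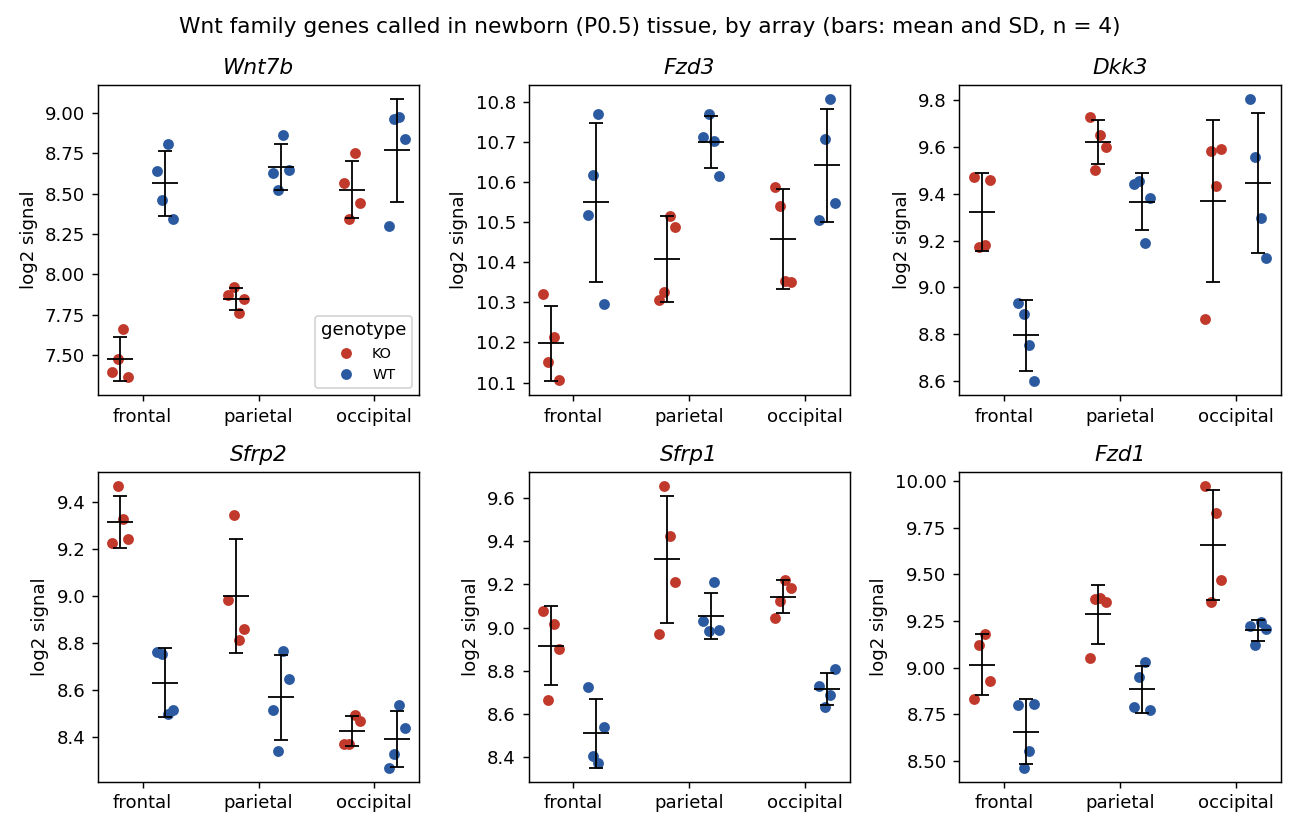
Log2 signal of Wnt7b, Fzd3, Dkk3, Sfrp2, Sfrp1 and Fzd1 on the 24 newborn arrays, by region, with KO (red) left of WT (blue); each point is an array, and bars give the mean and SD of 4 arrays. Wnt7b lies between 7.36 and 7.92 on the frontal and parietal KO arrays and at 8.30 or above on every other array, while Sfrp2 and Fzd1 lie higher in KO than in WT in the regions where they were called.

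Among the other 18 ligands few differences passed the test in newborn tissue. In frontal tissue Wnt9b fell, with 7.32, 7.60, 7.59 and 7.31 in KO and 7.58, 7.70, 7.78 and 8.03 in WT. Its highest KO arrays lay above the lowest WT array, and the difference was -0.32 (SE 0.0874, limma adjusted p = 0.0251). The Wnt9b difference was -0.12 with the dim-gene level as a covariate and was then not called, and the call was also lost without frontal KO 1, KO 4, WT 3 or WT 4 (range -0.38 to -0.23). Wnt2, a canonical ligand, rose over the regions by 0.27, a 1.20-fold change (SE 0.0703, limma adjusted p = 0.0331), where a value is the average of 3 regions and each genotype has 4. The labels do not say that same-numbered arrays of the regions come from one animal. Every KO number joined low and high levels of Y-linked genes. These were 5.09 and 9.32 on frontal and occipital KO 1, and 5.28 and 9.18 on frontal and occipital KO 2. For KO 3 they were 5.20 and 9.05 in frontal and parietal tissue, and for KO 4 5.99 and 9.02 in frontal and occipital tissue. WT 2 had 9.02 in frontal and 5.76 in parietal tissue. None of the 4 KO averages thus stands for 1 animal. Mean Wnt2 signal was 7.08 in KO and 6.81 in WT frontal tissue, 6.93 and 6.69 in parietal KO and WT tissue, and 6.94 and 6.65 in occipital KO and WT tissue. The groups overlapped within each region and stood apart once averaged. The Wnt2 call was lost when KO 1, 2, 3 or 4 or WT 2 or 3 was left out, with a difference of 0.20 to 0.33.

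Wnt7a, the closest relative of Wnt7b, had 7.92, 7.85, 7.94 and 7.93 in frontal KO and 7.99, 7.95, 7.74 and 7.62 in frontal WT tissue, with differences of 0.09, -0.04 and 0.14 in the frontal, parietal and occipital regions, none called. The groups overlapped in each region. Wnt5a, a ligand of the non-canonical branch, had 7.31 to 7.64 in frontal KO and 7.54 to 8.11 in frontal WT tissue, a difference of -0.47 that was not called (limma adjusted p = 0.1). Wnt1, best known from the midbrain and dorsal neural tube, had 5.66, 5.99, 5.87 and 6.02 in occipital KO and 5.61, 5.54, 5.48 and 5.59 in occipital WT tissue. Those groups did not overlap, but the difference of 0.33 was not called (limma adjusted p = 0.191).

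Fzd1, a Frizzled receptor, had higher signal in KO tissue in all 3 regions and was called in the occipital one and over the regions. Its probe set (10527936) had 8.83, 9.12, 9.18 and 8.93 in frontal KO and 8.80, 8.47, 8.56 and 8.81 in frontal WT tissue. In parietal tissue it had 9.05, 9.37, 9.37 and 9.35 in KO and 8.79, 8.95, 9.03 and 8.77 in WT. In occipital tissue it had 9.97, 9.35, 9.83 and 9.47 in KO and 9.22, 9.12, 9.25 and 9.21 in WT. No KO array overlapped the WT arrays of its region. The occipital difference of 0.46 passed the test (SE 0.114, limma adjusted p = 0.0398), and those of 0.36 in frontal and 0.40 in parietal tissue did not (adjusted p = 0.0525 and 0.0727). Over the regions Fzd1 rose by 0.41, or 1.32-fold (SE 0.0526, limma adjusted p = 1.97e-04). The occipital call was lost without occipital KO 1 or 3 or any 1 of the 4 occipital WT arrays (0.35 to 0.56), while the call over the regions was kept in all 8 fits that left out a replicate. With the level of Y-linked genes in the fit of averaged values, the call over the regions was lost (limma adjusted p = 0.231). The other calls over the regions were lost as well. In that fit 71 genes were called in all, against 1488 without the level. The differences were then 0.44 for Fzd1, -0.69 for Wnt7b, -0.29 for Fzd3, 0.35 for Sfrp1, 0.37 for Sfrp2 and 0.43 for Wnt2. The mean level was lower in KO than in WT in frontal (5.39 and 9.04), parietal (7.23 and 8.31) and occipital tissue (8.35 and 9.32). Level and genotype can thus hardly be told apart in that fit.

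Fzd3, a receptor of the planar cell polarity branch that is needed for the major axon tracts of the mouse forebrain, fell in frontal tissue and over the regions. It had 10.32, 10.15, 10.21 and 10.11 in frontal KO and 10.52, 10.62, 10.77 and 10.30 in frontal WT tissue, where only WT array 4 fell within the KO range. In parietal tissue it had 10.31, 10.33, 10.51 and 10.49 in KO and 10.71, 10.77, 10.70 and 10.61 in WT, with no overlap. Fzd3 fell by 0.35 in frontal tissue (limma adjusted p = 0.0122) and by 0.28 over the regions (SE 0.0552, adjusted p = 0.0059), a 1.21-fold change. The parietal difference of -0.29 was not called (adjusted p = 0.0958), nor was the occipital one of -0.18. The frontal call was lost without frontal KO 4 or frontal WT 3 (-0.44 to -0.28).

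The other 8 Frizzled receptors were called in none of the KO against WT comparisons. Fzd6 had 7.84, 8.38, 8.31 and 7.76 in frontal KO and 8.80, 8.20, 8.13 and 9.22 in frontal WT tissue, a difference of -0.52 with overlap (limma adjusted p = 0.0937), which was -0.31 without frontal WT 4 and -0.26 with the dim-gene level in the fit. Frontal WT arrays 1 and 4 were high for Fzd6, and they also had the highest meningeal marker level of that group, 9.14 and 9.68, whose part in the Fzd6 values was not tested. Fzd9 was lower on every parietal KO array (7.89 to 8.15) than on any parietal WT array (8.16 to 8.32), with a difference of -0.23 that was not called (limma adjusted p = 0.147).

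Of the secreted antagonists, Sfrp2 rose in frontal and parietal KO tissue and Sfrp1 in frontal and occipital KO tissue. Sfrp2 (probe set 10492798) had 9.22, 9.47, 9.33 and 9.24 in frontal KO and 8.76, 8.75, 8.50 and 8.51 in frontal WT tissue. In parietal tissue it had 8.98, 9.34, 8.81 and 8.86 in KO and 8.52, 8.34, 8.77 and 8.65 in WT. In occipital tissue it had 8.37, 8.37, 8.49 and 8.47 in KO and 8.27, 8.33, 8.54 and 8.44 in WT. The groups stood apart in frontal and parietal tissue and overlapped fully in occipital tissue.

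Sfrp2 rose by 0.68 in frontal tissue, or 1.61-fold (SE 0.103, limma adjusted p = 8.43e-05), and by 0.43 in parietal tissue (adjusted p = 0.0234). The occipital difference was 0.03 (95% interval -0.18 to 0.25). The frontal minus occipital difference of Sfrp2 was 0.89 in KO (adjusted p = 7.36e-06) and 0.24 in WT (not called), and the change of 0.65 between genotypes passed the test (SE 0.146, limma adjusted p = 0.0470). The parietal call was lost without parietal KO 1, KO 2, WT 1 or WT 2 (0.31 to 0.50), and the call of the change was lost in 13 of the 16 fits that left out an array, namely each of the frontal and occipital KO arrays, frontal WT 3 and 4 and occipital WT 2, 3 and 4 (0.60 to 0.69).

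Sfrp1 (probe set 10570957) had 9.08, 8.66, 9.02 and 8.90 in frontal KO and 8.73, 8.41, 8.38 and 8.54 in frontal WT tissue. In occipital tissue it had 9.04, 9.12, 9.22 and 9.19 in KO and 8.73, 8.63, 8.69 and 8.81 in WT. The occipital groups stood apart, and in frontal tissue KO array 2 lay below WT array 1. Sfrp1 rose by 0.40 in frontal tissue (SE 0.110, limma adjusted p = 0.0240), by 0.43 in occipital tissue (adjusted p = 0.0478) and by 0.36 over the regions, or 1.29-fold (adjusted p = 4.47e-04). The parietal difference of 0.26 was not called, and was 0.15 without parietal KO 2. The frontal call was lost without frontal KO 1, 3 or 4 or WT 2 or 3 (0.35 to 0.49), and the occipital call without any 1 of its 8 arrays (0.40 to 0.46). Sfrp4 and Sfrp5 were called in no comparison.

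Astrocyte and radial glia markers were also higher in KO tissue. Of 7 astrocyte genes 5 rose in frontal tissue, none were called in parietal and 1 rose in occipital tissue, against 4.7%, 1.06% and 0.762% of all genes. Their mean signal was 8.30 to 8.89 in frontal KO and 7.87 to 8.58 in frontal WT tissue. It was 8.53 to 8.76 in parietal KO and 8.18 to 8.50 in parietal WT tissue. In occipital tissue it was 8.90 to 9.07 in KO and 8.33 to 8.78 in WT. The parietal and occipital ranges did not overlap. Of 10 radial glia genes 5 rose over the regions, against 4.71% of all genes. In frontal and in parietal tissue 1 of them rose, and none were called in occipital tissue. Their part in the Sfrp1, Sfrp2 and Fzd1 results was not tested.

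Dkk3, a divergent Dickkopf protein, rose in frontal tissue. It had 9.47, 9.17, 9.18 and 9.46 in frontal KO and 8.94, 8.89, 8.76 and 8.60 in frontal WT tissue, with no overlap, and the difference was 0.53, or 1.44-fold (SE 0.136, limma adjusted p = 0.0176). The parietal difference was 0.25 and the occipital difference -0.08, neither called. The frontal call was lost without frontal KO 1, KO 4 or WT 4 (0.46 to 0.58). Dkk1, Dkk2 and Dkk4 were called in no comparison.

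None of the R-spondins was called between the genotypes. Rspo2 had 8.07, 8.02, 7.81 and 7.79 in frontal KO and 8.50, 8.97, 8.30 and 8.38 in frontal WT tissue. Every frontal KO array lay below every frontal WT array, but the difference of -0.62 missed the threshold (95% interval -1.03 to -0.20, limma adjusted p = 0.0586).

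Counted over the 41 genes, 6 were called in frontal tissue (14.6%), where 7.52% of all 19938 genes were called. Of these 3 were higher in KO, against 4.7% of all genes, and 3 lower, against 2.81%. In parietal tissue 2 were called, against 1.81% of all genes. They were 1 higher and 1 lower in KO, against 1.06% and 0.747% of all genes. In occipital tissue 2 were called, against 1.34%, and both were higher in KO, against 0.762% (0.577% of all genes were lower). Over the regions 6 were called, against 7.46%, with 4 higher and 2 lower in KO, against 4.71% and 2.75% of all genes. The frontal differences of the 41 genes had a median of -0.17, with 33 below 0, while the median of all genes was -0.03. The median was -0.01 in parietal and 0.08 in occipital tissue, beside -0.01 and 0.01 for all genes. With the level of Y-linked genes in the fit, 2 genes were called in frontal tissue (Wnt7b and Sfrp2), 2 in parietal tissue and 0 in occipital tissue. Over the regions that covariate left 0 calls in the fit of averaged values and 6 in the fit of the 24 single arrays, the same 6 genes. Of all genes, 71 and 824 were called in these fits. The fit of 24 arrays counts arrays of different regions as separate samples, although they may share an animal, so its 6 calls do not restore those lost.

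**Figure D2:**
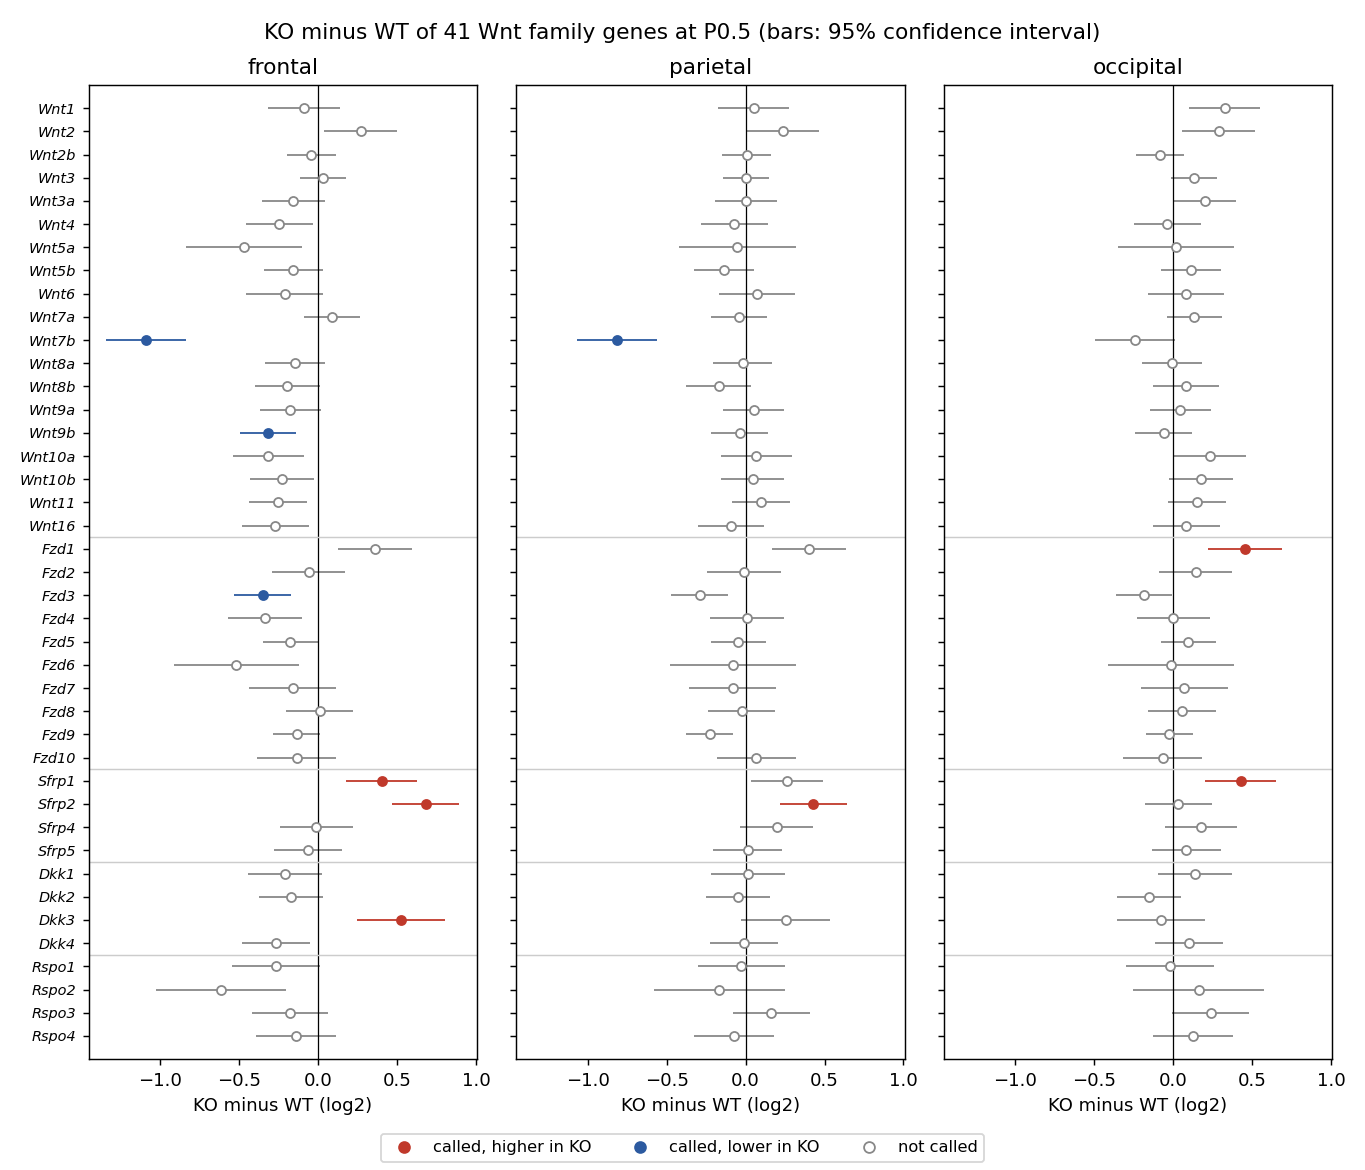
KO minus WT difference (log2, with 95% confidence interval) of all 41 genes in frontal, parietal and occipital tissue at P0.5; filled points passed the test (red higher, blue lower in KO) and open points did not. Wnt7b stands at -1.09 and -0.82 in the frontal and parietal panels and at -0.24 in the occipital panel.

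The comparison of frontal with occipital tissue asks how the signal of these genes differed between samples of these regions in each genotype. The level of Y-linked genes also differed between these regions in KO tissue. It was 5.09 to 5.99 on the frontal KO arrays and 9.02 to 9.32 on occipital KO 1, 2 and 4, with 5.88 on occipital KO 3. Region and this level can thus hardly be told apart in KO tissue, while in WT tissue it was high in both regions. In KO tissue 4 genes were called, against 3.22% of all genes, with 1 higher and 3 lower frontally, against 1.47% and 1.76%. In WT tissue 6 were called, against 6.03%, with 4 higher and 2 lower frontally, against 2.26% and 3.77%. Fzd1 was lower frontally in both, by 0.64 in KO (limma adjusted p = 0.00115) and by 0.54 in WT (adjusted p = 0.00569). Its frontal values were 8.83 to 9.18 in KO, where the occipital ones were 9.35 to 9.97, and 8.47 to 8.81 in WT, where the occipital ones were 9.12 to 9.25. The change in this difference between the genotypes was -0.10 and was not called. Marker lists differed between these regions as well. Of 10 radial glia genes, 2 were called lower frontally in KO and 4 in WT tissue, against 1.76% and 3.77% of all genes, and 0 higher. The 8 hippocampus genes had medians of -0.45 in KO and -0.41 in WT tissue, beside -0.022 and 0.025 over all genes. The part of these lists in the frontal minus occipital differences was not tested.

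Rspo3, whose product binds the Lgr receptors, was lower in frontal than in occipital KO tissue. It had 7.65, 7.90, 7.65 and 7.57 in frontal KO and 8.41, 8.25, 8.24 and 8.16 in occipital KO tissue, which did not overlap, a difference of -0.57 (SE 0.118, limma adjusted p = 0.00479). In WT tissue it had 7.94, 7.97, 7.64 and 7.94 in frontal and 8.40, 7.79, 8.01 and 7.91 in occipital samples, and the difference of -0.15 was not called. The change between the genotypes of -0.42 was not called either (adjusted p = 0.199). Occipital KO 1 and WT 1, highest for Rspo3 in their groups, also had the highest mean of the 8 hippocampus genes there. These means were 9.08 and 8.95, and their part in the Rspo3 values was not tested.

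In WT tissue Dkk3 was lower frontally, with 8.94, 8.89, 8.76 and 8.60 in frontal and 9.80, 9.56, 9.30 and 9.12 in occipital samples, a difference of -0.65 (SE 0.136, limma adjusted p = 0.00548). In KO tissue it had 9.17 to 9.47 in frontal and 8.86 to 9.59 in occipital samples, a difference of -0.05. The change between the genotypes was 0.60 and was not called (limma adjusted p = 0.142).

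Rspo2 was higher in frontal WT tissue, with 8.50, 8.97, 8.30 and 8.38, than in occipital WT tissue, with 7.96, 7.36, 7.38 and 8.17. The difference was 0.82, or 1.77-fold (SE 0.201, limma adjusted p = 0.0161). In KO tissue it had 7.79 to 8.07 in frontal and 7.42 to 8.56 in occipital samples, a difference of 0.04. The change between genotypes of -0.78 was not called (adjusted p = 0.178), and the WT call was lost without occipital WT 2 or 3 (0.68 to 0.97).

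The ligands Wnt10a, Wnt10b and Wnt11 were also called higher in frontal than in occipital WT tissue, by 0.41, 0.40 and 0.35 (limma adjusted p = 0.0279, 0.0167 and 0.0213). Wnt10a had 7.67, 7.62, 7.73 and 7.97 in frontal and 7.36, 7.26, 7.28 and 7.45 in occipital WT tissue. Wnt11 had 7.13, 7.22, 7.30 and 7.54 in frontal and 7.08, 6.80, 6.91 and 7.00 in occipital WT tissue. Frontal WT array 4 was highest for Wnt10a and Wnt11 and also had the highest dim-gene level of the 24 arrays. With the dim-gene level as a covariate the 3 differences were 0.19, 0.27 and 0.18 and none was called. Wnt10a was not called without frontal WT 3 or 4 or occipital WT 2 or 3 (0.34 to 0.45), Wnt10b without occipital WT 3 (0.34 to 0.44), and Wnt11 without frontal WT 4 or occipital WT 2 or 3 (0.27 to 0.40).

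**Figure D3:**
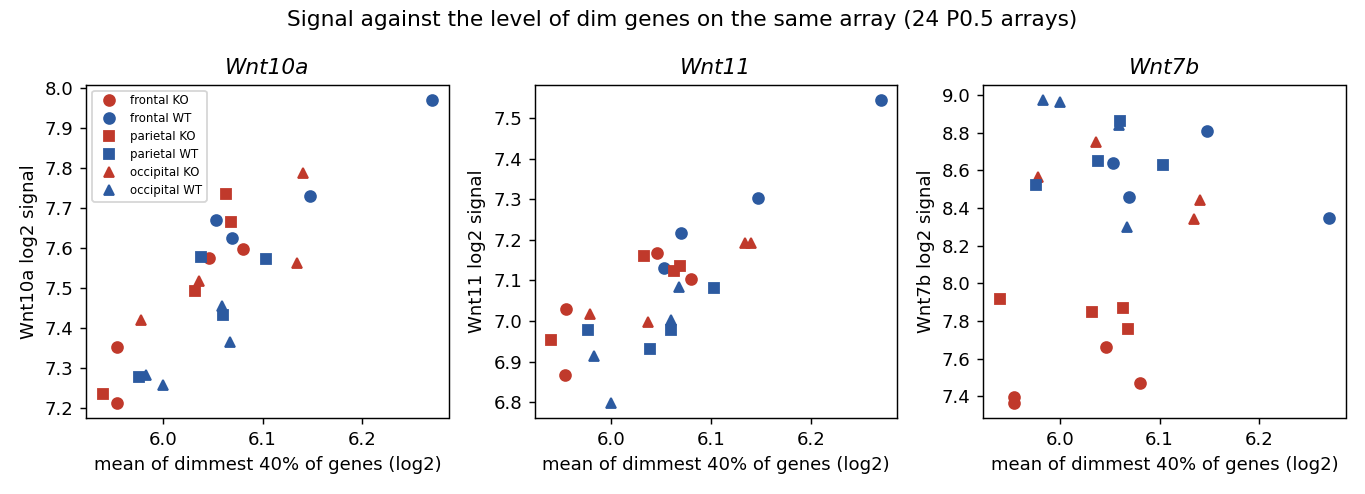
Log2 signal of Wnt10a, Wnt11 and Wnt7b on the 24 newborn arrays (y axes) against the mean signal of the dimmest 40% of genes on the same array (x axes, log2), with KO in red and WT in blue and a marker shape per region. Frontal WT array 4, at 6.27 on the x axis, has 7.97 for Wnt10a and 7.54 for Wnt11. The part of the dim-gene level in the values of the 3 genes was not tested.

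The test of whether the frontal minus occipital difference changed with genotype called 2 of the 41 genes, Wnt7b and Sfrp2, against 0.416% of all genes (0.236% positive and 0.181% negative). The frontal minus occipital difference was more negative for Wnt7b and more positive for Sfrp2 in KO than in WT tissue. Of the 41 changes 38 were negative, with a median of -0.25, beside -0.03 over all genes. The dim-gene level moved with this contrast, at 6.01 in frontal KO and 6.07 in occipital KO, and at 6.14 in frontal WT and 6.03 in occipital WT tissue, and its part in the median was not tested. Neither of the 2 calls was kept with the level of Y-linked genes in the fit.

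**Figure D4:**
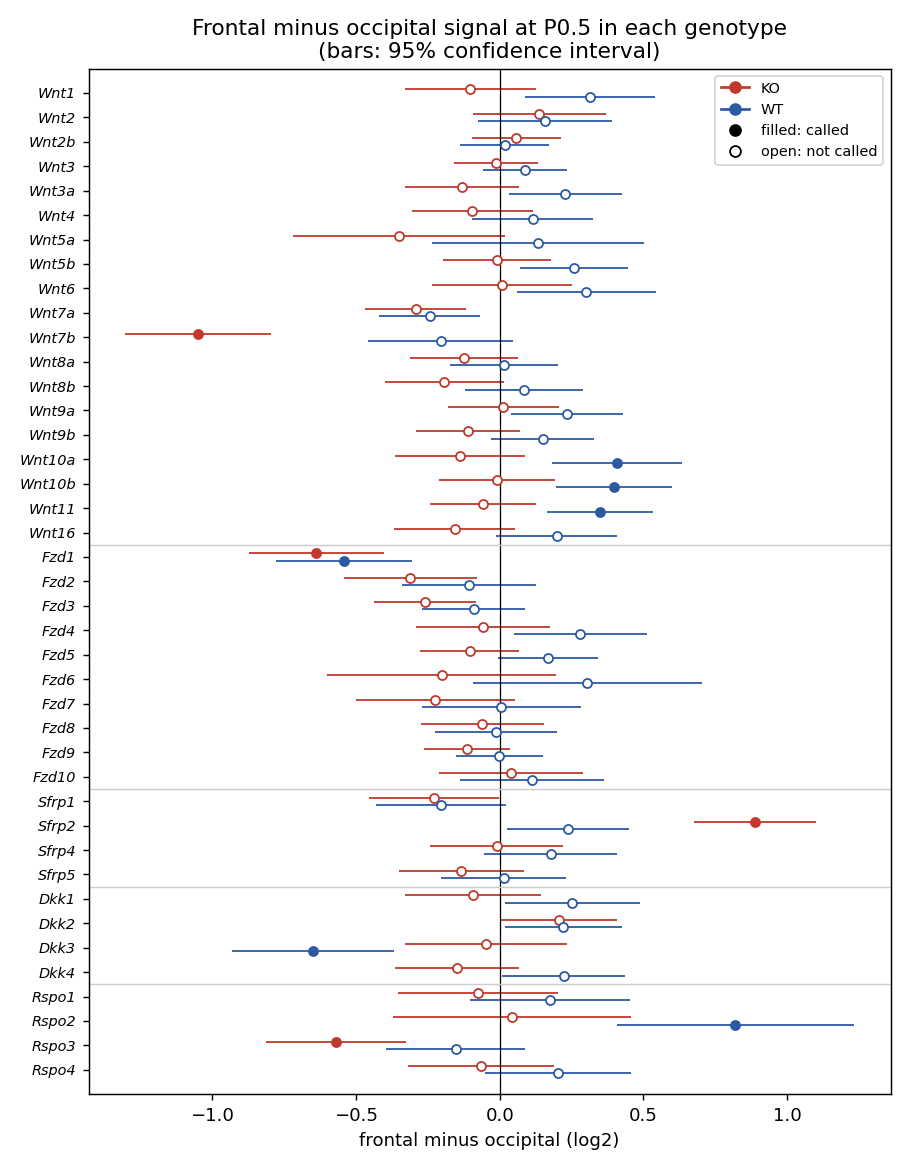
Frontal minus occipital difference (log2, with 95% confidence interval) of the 41 genes at P0.5, with KO in red above WT in blue for each gene; filled points passed the test. Fzd1 is called in both genotypes at -0.64 in KO and -0.54 in WT, while Wnt7b (-1.05) and Sfrp2 (0.89) are called in KO alone, where the change between the genotypes was also called.

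At E14.5 no family member was called by limma, and neither was any other of 18194 genes (0%). At an unadjusted p under 0.05, 7 of the 41 genes differed, against 5.76% of all genes, with 6 higher and 1 lower in KO, against 3.32% and 2.44%. The KO and WT arrays did not overlap for 7 genes, against 11.2% of all genes, with 6 higher and 1 lower in KO, against 7.43% and 3.74%. Rspo1 had 7.08, 8.39 and 6.88 in KO and 4.39, 6.11 and 5.63 in WT neocortex. No KO array overlapped the WT arrays, and the difference was 2.07, or 4.21-fold (SE 0.527, limma adjusted p = 0.85). Xist was 9.58, 10.17 and 5.07 on the KO arrays and 5.01, 10.76 and 5.41 on the WT arrays. With the level of Y-linked genes in the fit the Rspo1 difference was 1.40, and the part of that level was not tested. Wnt9a had 5.66, 6.04 and 5.61 in KO and 4.62, 4.81 and 4.99 in WT, a difference of 0.96 (adjusted p = 0.85), but its other probe set differed by 0.11. Wnt4 had 7.58, 6.33 and 5.80 in KO and 5.25, 5.56 and 5.67 in WT, a difference of 1.07, and its other probe set differed by 0.80, with no overlap on either. The Wnt4 difference was 0.57 without KO 1, 0.45 with array weights and 0.82 with the Y-linked level in the fit.

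Wnt7b at E14.5 had 9.84, 9.05 and 9.06 in KO and 10.43, 9.83 and 9.73 in WT. KO array 1 lay among the WT arrays, and the difference of -0.68 was not called (95% interval -1.34 to -0.02, limma adjusted p = 0.858). Its other probe set differed by -0.76, with no overlap between the groups. Wnt8b, a ligand of the cortical hem, had 5.02, 7.05 and 5.32 in KO and 4.59, 5.11 and 4.80 in WT, a difference of 0.96 with KO array 2 well above the other 5 arrays, and 0.34 without it. The other Wnt8b probe sets differed by 0.09 and 1.49, both with overlap. Fzd3 had 5.30, 8.28 and 7.94 in KO and 8.78, 8.77 and 8.30 in WT, a difference of -1.44 in which KO array 1 stood far below the rest, and -0.51 without it. The other 5 Fzd3 probe sets differed by -0.41 to 0.38. Sfrp2 had 9.23, 7.89 and 7.40 in KO and 7.24, 7.61 and 7.19 in WT, with overlap. With the Y-linked level in the fit the differences of Wnt7b, Wnt8b and Fzd3 were -0.55, 0.68 and -1.30.

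Mean signals of several marker lists differed between the KO and WT arrays at E14.5. The mean of 8 meningeal and fibroblast genes was 7.57 to 8.82 on KO arrays and 7.00 to 7.29 on WT arrays, and the mean of 7 cortical hem genes was 6.33 to 6.93 and 5.81 to 5.89 on KO and WT arrays. Neither pair of ranges overlapped. The mean of 7 choroid plexus genes was 6.48 to 6.97 in KO and 5.65 to 6.57 in WT. Cortical neuron markers (6 genes) were lower in KO, with a mean of 7.76 to 8.22, against 8.37 to 8.89 in WT. The mean of 7 microglia genes was 6.31 to 7.02 in KO and 6.05 to 6.28 in WT. For 7 astrocyte genes it was 6.98 to 7.22 in KO and 6.81 to 6.94 in WT. On every other marker list the KO and WT ranges overlapped. None of these genes was called, and their part in the values of Rspo1, Wnt4, Wnt7b, Wnt8b and Wnt9a was not tested. The E14.5 p-values above come from a fit without pairing. With replicate number as a block, a pairing that the labels do not give, 0 of the 41 genes were called as well.

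**Figure D5:**
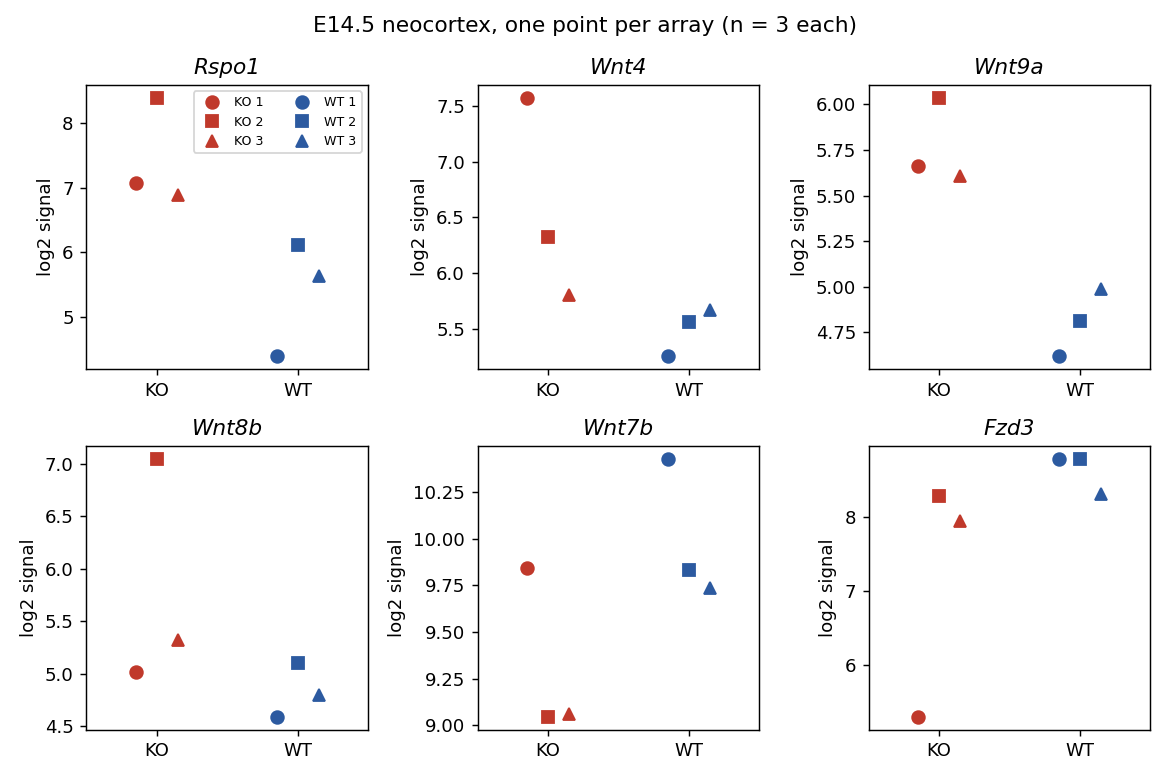
Log2 signal of Rspo1, Wnt4, Wnt9a, Wnt8b, Wnt7b and Fzd3 on the E14.5 neocortex arrays, with KO (red) left of WT (blue) and a marker shape per replicate number. Rspo1 is between 6.88 and 8.39 in KO and between 4.39 and 6.11 in WT, and the Fzd3 value of KO array 1, 5.30, lies apart from the others.

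The 28 genes called in no comparison were 13 Wnt ligands (Wnt1, Wnt2b, Wnt3, Wnt3a, Wnt4, Wnt5a, Wnt5b, Wnt6, Wnt7a, Wnt8a, Wnt8b, Wnt9a and Wnt16), 8 Frizzled receptors (Fzd2 and Fzd4 to Fzd10), Sfrp4, Sfrp5, Dkk1, Dkk2, Dkk4, Rspo1 and Rspo4. Their KO minus WT differences ran from -0.52 (Fzd6) to 0.09 (Wnt7a) in frontal tissue, from -0.23 (Fzd9) to 0.20 (Sfrp4) in parietal tissue and from -0.15 (Dkk2) to 0.33 (Wnt1) in occipital tissue. Among them Fzd4, a receptor that also binds norrin and serves vessel growth in the retina, came nearest to the threshold between the genotypes, with -0.34 in frontal tissue (limma adjusted p = 0.065). Their frontal minus occipital differences ran from -0.35 (Wnt5a) to 0.21 (Dkk2) in KO and from -0.24 (Wnt7a) to 0.31 (Wnt1) in WT tissue.

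Other genes of the pathway were counted from lists that were drawn up with earlier results of these data known. Of 23 measured co-receptors, other receptors and secretion genes, 1 rose and 1 fell in frontal KO tissue, where 4.7% of all genes rose and 2.81% fell. Lgr4, an R-spondin receptor, rose by 0.41 (limma adjusted p = 0.00278), and Frzb, a secreted Wnt antagonist related to the Sfrp proteins, fell by 0.39 (adjusted p = 0.0265). Lgr5, another R-spondin receptor, rose by 0.55 in occipital KO tissue (adjusted p = 2.74e-04) and by 0.24 over the regions (adjusted p = 0.0076). Its frontal minus occipital difference was -0.52 in KO, and the change against WT was -0.53 (limma adjusted p = 0.0321).

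Of 22 genes acting on beta-catenin inside the cell, 1 fell in parietal KO tissue and none were called in the other regions, where 1.81% of all genes were called in parietal, 7.52% in frontal and 1.34% in occipital tissue. That gene was Ctnnb1, beta-catenin itself, which fell by 0.28 (limma adjusted p = 0.0361) and by 0.19 over the regions (adjusted p = 0.0176). Of 15 measured target genes of beta-catenin, 2 rose and 2 fell in frontal tissue, against the same 4.7% and 2.81%. Fgf9, a growth factor, rose by 0.71 in frontal and by 1.02 in occipital KO tissue (limma adjusted p = 8.98e-05 and 2.98e-06), and Cd44, a cell surface receptor for hyaluronan, rose by 0.62 in frontal tissue. Nkd2, an inhibitor of Dishevelled, fell by 0.29 and Tnfrsf19 by 0.33 in frontal tissue (adjusted p = 0.0135 and 0.0276). Axin2, Lef1 and Nkd1, commonly used readouts of the canonical branch and named here after their values were seen, were called in none of the newborn comparisons. At E14.5 their KO minus WT differences were 0.55, 0.57 and 0.70, none called, and the 15 targets had a median of 0.41, beside 0.06 over all genes. Of 12 planar cell polarity genes 1 fell in frontal tissue and over the regions, against 2.81% and 2.75% of all genes. It was Vangl1, by 0.40 in frontal tissue (adjusted p = 0.0152) and by 0.33 over the regions (limma adjusted p = 0.001). Between frontal and occipital tissue Celsr1 was lower frontally by 0.45 in KO and by 0.36 in WT (limma adjusted p = 0.00675 and 0.0293). Prickle1 was higher frontally by 0.26 in WT (limma adjusted p = 0.0391). In KO 1.76% of all genes were lower, and in WT 3.77% were lower and 2.26% higher.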

How the data were processed

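RNA from mouse cortex was measured on 6 embryonic (E14.5) and 24 newborn (P0.5) arrays. The deposited values are log2 probe-set signals made by the authors with Affymetrix Expression Console 1.1 and RMA, per the submitters' processing notes, so low signals are compressed and array distributions are alike by construction (array medians of 5.12 to 5.15 and of 7.42 to 7.52). Embryonic signals spanned 2.86 to 14.0 and newborn signals 1.77 to 14.6. Precision is limited by how many arrays each group has. The E14.5 table holds probe names of another array type than the P0.5 table, although the label protocols name one type, so the stages were fitted apart.

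Of 45101 embryonic probe sets, 34958 had 1 gene symbol, 932 several and 9211 none. In the newborn table these numbers were 21789, 1621 and 12147 of 35557. Probe sets of 1 gene were kept and the one with the highest mean signal stood for its gene, which left 18194 and 19938 genes. No symbol needed updating.

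The tests used limma (version 3.58.1, under R 4.3.3), with lmFit followed by eBayes with an intensity trend, and p-values were adjusted by Benjamini and Hochberg over all genes of a table, with a threshold of 0.05. At P0.5 the 6 groups shared 1 fit. For values over the regions, the 3 arrays of one genotype and number were averaged into one. The fits were tested on simulated data.

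The 41 genes and the gene lists were chosen with earlier results of these data known. Genes outside the 41 were named only if they were called members of a pathway list (up to 4 per list), and exceptions are stated. Alternatives were array medians subtracted, no intensity trend, no dim genes (lowest 30%), mean of a gene's probe sets, array weights, a replicate block, the Y-linked level, a fit of the compared arrays alone, and each array left out. The dim-gene level as a covariate and the joint removal of 2 arrays, and the Y-linked level in the 24-array fit over the regions, were added after seeing the data. Same-numbered E14.5 arrays deviated together across genotypes (correlations of 0.13 to 0.44 in 3 pairs). The labels do not give a pairing, and 3 pairs cannot settle one, so the main E14.5 fit used no block. At P0.5 no comparison had a correlation over 0.1 in all of its same-numbered pairs, so no pairing was used. Between frontal and occipital WT tissue 3 of 4 pairs were over 0.1 (0.06 to 0.39), and fewer were in the other comparisons.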

Additional observations from a re-analysis of the deposited data

Results flagged for a closer look

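In 5 of 132 groups of 4 newborn arrays that were examined, 1 array stood apart from the other 3, where chance gives about 5%. These were Rspo3 on frontal WT array 3 (7.64), Rspo1 on parietal KO array 2 (6.65), Fzd1 on parietal KO array 1 (9.05), Wnt1 on frontal KO array 1 (5.48) and Wnt10b on frontal KO array 1 (7.08). The Fzd1 value still lay above all 4 parietal WT arrays.

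The frontal minus occipital difference changed with genotype for Wnt7b (-0.85) and for Sfrp2 (0.65), by the limma test of the difference between the genotypes.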

How the results depend on the processing

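Of 28 calls of single genes, 9 were kept under every alternative and with each array left out, namely Wnt7b in frontal and parietal tissue, Sfrp2 in frontal tissue, Wnt7b, Sfrp2, Fzd1 and Rspo3 between frontal and occipital KO tissue, and Dkk3 and Fzd1 between frontal and occipital WT tissue. The other 19 were lost under at least 1 alternative, 14 of them also with at least 1 array left out. Array weights gave 11 genes called in frontal tissue, 4 in parietal tissue and 4 for the change between genotypes. With the level of Y-linked genes in the fit 2 were called in frontal tissue, 0 in occipital tissue, 0 for the change between genotypes, and over the regions 0 in the fit of averaged values but 6, the same genes, in the fit of 24 arrays. That last fit counts arrays that may share an animal as separate samples. Fitting only the arrays compared gave 1 gene in occipital tissue, 3 between frontal and occipital WT tissue and 1 for the change. Without an intensity trend 1 gene was called in occipital tissue and 1 for the change, and with array medians subtracted 0 in occipital tissue. The dim-gene level as a covariate gave 3 genes in WT and 1 for the change, and leaving out frontal WT 4 with parietal KO 2 gave 1 in parietal tissue. The cause of these moves was not tested.

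With the replicate block 0 of the 41 genes were called at E14.5 and 0 for the change between genotypes, and at P0.5 the numbers pair the arrays in part at most. With 1 array left out in turn, the number of genes called was 0 at E14.5, 2 to 9 in frontal, 1 to 2 in parietal and 0 to 1 in occipital tissue, 5 to 7 over the regions, 4 to 5 between frontal and occipital KO tissue, 2 to 7 in WT and 0 to 2 for the change. Rspo3 at E14.5 (-0.08) turned to 0.23 with the mean of its probe sets, 0.082 with array weights, 0.0098 with the Y-linked level and 0.0066 without WT 3, and the fits without an array gave -0.17 to 0.0066. Rspo2 over the regions (-0.21) turned to 0.087 with the Y-linked level, and the Wnt2b change (0.04) to -0.0060 without occipital KO 3, in a range of -0.0060 to 0.081. None of these was called. Of the 41 genes, 10 in embryonic and 5 in newborn tissue were among the dimmest 30%, where RMA signals change little.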

Other observations

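At E14.5 several genes outside the 41, picked from the pathway lists after their values were seen, had higher signal in KO neocortex without being called. Wif1, a secreted Wnt inhibitor, differed by 0.84. Wls, which carries Wnt proteins to the cell surface, differed by 1.12. Adgra2 and Reck, which act together as co-receptors for Wnt7a and Wnt7b in brain endothelium, differed by 1.24 and 0.87. The 22 measured co-receptor, receptor and secretion genes had a median of 0.29, beside 0.06 over all genes. The level of meningeal and fibroblast markers was higher on KO arrays as well, at 7.57 to 8.82 against 7.00 to 7.29 on WT arrays, and its part in these values was not tested.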
